A study of Homo sapiens with 16 samples.

Results

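Interferon-stimulated genes are the genes that cells switch on when interferon, a secreted warning signal of infection, binds its receptors. The 42 genes described here were given as a list, and each was read from the transcript cluster that carries its symbol alone, taking the cluster with the highest mean where a gene has several. Of the 42 listed genes, 41 were measured this way, among 18377 genes in all. STAT2 had no cluster of its own and was not analysed here.

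The tumours were xenografts of BT474, a human HER2-positive breast cancer cell line, grown in the mammary fat pads of mice lacking a full immune system, and every line carried a lentiviral vector whose hairpin is switched on by doxycycline. The control tumours expressed a control hairpin (CTRL miR, n = 6), and the others expressed a hairpin against SHP2, either SHP2 miR1 (n = 7) or SHP2 miR2 (n = 3). All mice, controls included, drank doxycycline at 2 g per L from tumour formation until dissection at day 30, and the labels give no strain, age or number of animals and do not say whether each vector was carried by 1 transduced population. Total RNA of each tumour (100 ng) was hybridised to 1 human gene array, so that cells of the mouse host contribute only as far as their RNA binds human probes. SHP2 is the tyrosine phosphatase made from PTPN11, acts downstream of receptor tyrosine kinases and has also been described to act on JAK and STAT proteins. The comparison asks how tumours with lowered SHP2 differ from control tumours.

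As background, interferons bind receptors whose JAK kinases activate transcription factors in the cytoplasm. The complex ISGF3, which includes IRF9, binds the interferon-stimulated response element (ISRE) in promoters, while interferon gamma acts mainly through the gamma-activated site (GAS). The products of the induced genes sense or cut viral RNA, block entry, translation or assembly of viruses, conjugate the ubiquitin-like protein ISG15 to other proteins, or feed back on the signal. In tumours the same genes can be active without infection.

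Values are log2 signals as deposited, so a difference of 1 is a doubling, and differences are given with their standard error (SE). A gene is called where the Benjamini-Hochberg adjusted p of the limma fit over all 18377 genes is below 0.05, and p-values measure the spread between these tumours, which the labels do not tie to separate animals. PTPN11 itself was at 8.23 to 8.61 in the control tumours, at 6.59 to 7.18 with miR1 and at 6.52, 6.52 and 6.34 with miR2. It fell with both hairpins (-1.47 ± 0.10 with miR1, adjusted p = 5.112e-08; -1.94 ± 0.12 with miR2, adjusted p = 6.971e-09), and it was lower with miR2 than with miR1 (miR1 minus miR2 0.46 ± 0.12, adjusted p = 0.01146). The mean signal of 10 markers of BT474-like luminal HER2-positive cells was 9.27 to 10.02 over the 16 tumours. Of these 10 markers, 3 rose with miR2 (30%, beside 11.8% of all genes) and 1 with miR1 (10%, beside 1.38%). Between the hairpins 4 were higher with miR1 (40%, beside 14.3%) and 2 lower (20%, beside 8.22%). ESR1, the oestrogen receptor gene, rose by 1.11 with miR2 (adjusted p = 0.0003301) and by 0.58 with miR1 (adjusted p = 0.02629), and GATA3, a luminal transcription factor gene, by 1.01 with miR2 (adjusted p = 5.416e-05). Not all markers went this way: with miR2, 6 of the 10 had a change above 0, and the lowest change was -0.33. The keratin gene KRT18 had 11.165 to 11.282 with miR2, below its 11.594 to 11.824 with miR1 and inside the control range of 11.023 to 11.707. KRT19 had 9.337 to 9.62 with miR2, 9.804 to 10.24 with miR1 and 9.436 to 10.129 in the controls.

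The controls fall into unlike sets. The adaptor gene IRS4 was at 3.16 and 3.77 in controls 2 and 5 but at 7.14 to 8.29 in the other 4 controls (1, 3, 4 and 6), and the homeobox gene HOXD10 was at 4.17 and 3.43 against 7.31 to 7.83, while both were below 4 in all 10 knockdown tumours. Which set is nearer to an unchanged BT474 tumour was not tested, so results are also given against each set of controls. The arrays also form 2 sets by the mean signal of 5 small noncoding RNAs, 8.19 to 8.39 in control tumours 1 to 3 and miR1 tumours 1 to 4 (set A) and 6.81 to 7.21 in the other 9 (set B), which include all 3 miR2 tumours. The labels name no batch. Within set B the comparison is 3 tumours of each kind.

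RefSeq promoter windows of GRCh38.p14, from 250 bases before to 50 after a start site, were found for 35 of the 42 genes. OAS2, OASL, IFIT2, MX2, IRF7, USP18 and TRIM22 had no window in the table used. The ISRE core was searched as GAAA, any pair of bases and GAAA again, on both strands, counting overlapping matches. It was present in at least 1 window of 24 of the 35 genes (68.6%), against 4.38% of all 27305 genes with a window and 3.57% of all 35116 windows. The GAS core TTCNNNGAA, which reads the same on both strands, was present in 11 of the 35 (31.4%), against 9.38% of all genes with a window and 7.66% of all windows.

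The stretches below cover 180 bases upstream of the annotated start, 5′ to 3′ on the gene's strand, with ISRE cores in capitals. They are shown because the genes share the motif and moved differently: IFI6 rose most with miR2, IFI44L and IFIT1 rose with miR2, BST2 was called in no comparison and HERC5 fell with both hairpins. In IFIT1 and HERC5 the core lies on the opposite strand and so reads TTTC first, and in BST2 and HERC5 matches overlap.
IFI6 (RefSeq GRCh38.p14, chr1:27672193-27672372, minus strand): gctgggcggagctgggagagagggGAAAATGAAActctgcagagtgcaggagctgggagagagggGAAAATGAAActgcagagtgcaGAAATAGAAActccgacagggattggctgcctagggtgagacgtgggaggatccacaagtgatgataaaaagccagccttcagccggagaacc
IFI44L (RefSeq GRCh38.p14, chr1:78620268-78620447, plus strand): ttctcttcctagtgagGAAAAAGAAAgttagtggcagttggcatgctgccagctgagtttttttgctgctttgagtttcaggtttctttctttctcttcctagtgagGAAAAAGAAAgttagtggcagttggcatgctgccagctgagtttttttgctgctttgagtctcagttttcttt
IFIT1 (RefSeq GRCh38.p14, chr10:89392443-89392622, plus strand): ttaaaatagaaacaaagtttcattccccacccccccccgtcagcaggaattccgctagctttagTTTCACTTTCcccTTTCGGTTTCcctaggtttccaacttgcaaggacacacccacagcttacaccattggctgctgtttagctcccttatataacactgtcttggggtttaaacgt
BST2 (RefSeq GRCh38.p14, chr19:17405631-17405810, minus strand): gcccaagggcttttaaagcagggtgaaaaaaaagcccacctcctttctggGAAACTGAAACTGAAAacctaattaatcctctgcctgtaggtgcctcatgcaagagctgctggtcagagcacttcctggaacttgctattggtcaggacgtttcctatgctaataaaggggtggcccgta
HERC5 (RefSeq GRCh38.p14, chr4:88456939-88457118, plus strand): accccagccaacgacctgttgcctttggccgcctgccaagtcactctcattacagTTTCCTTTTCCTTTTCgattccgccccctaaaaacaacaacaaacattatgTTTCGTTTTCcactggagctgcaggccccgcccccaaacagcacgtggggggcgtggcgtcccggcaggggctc

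The IFI6 promoter holds 3 cores, which begin at positions -156, -115 and -93 from the start site, HERC5 holds 3 and the other promoters shown hold 2 each. Of the 19 genes with a window that rose with miR2, 12 held the ISRE core (63.2%), and of the 15 measured genes with a window that did not rise with miR2, 12 held it (80.0%). Promoters of OAS1, IRF1 and IRF9 held no ISRE core in the window and held the GAS core. A match is a run of letters and not a measured binding site.

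**Figure D1:**
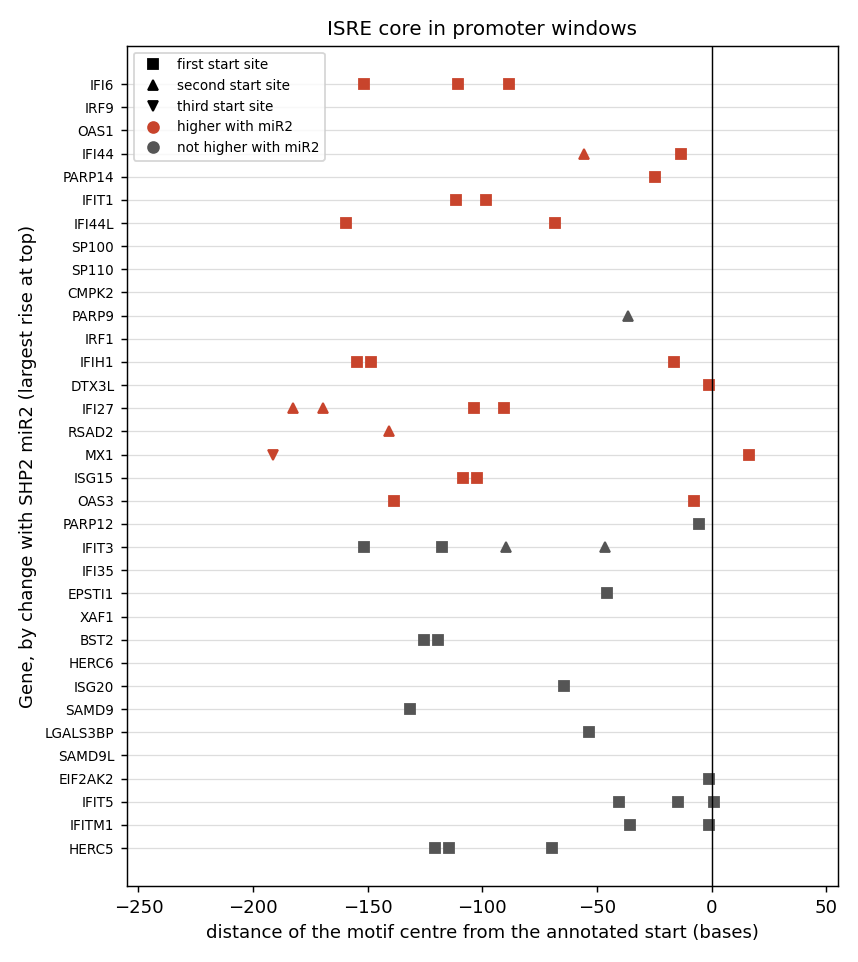
Position of the ISRE core in the promoter windows of 34 measured interferon-stimulated genes, as distance in bases of the motif centre from the annotated start (x axis), with genes ordered by their log2 change with miR2 (y axis) and marker shapes for different annotated start sites of a gene. Genes that rose with miR2 (red) and genes that did not (grey) both hold the motif, 12 of 19 and 12 of 15.

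With SHP2 miR2, 22 of the 41 measured genes rose, 2 fell and 17 were not called, and the median change was 0.35. Over all genes 11.8% rose and 18.2% fell with miR2, and the median change was 0.023. With SHP2 miR1, 2 of the 41 rose and 2 fell, against 1.38% and 3.38% of all genes, and the median change was 0.065 (0.018 over all genes). After quantile normalisation of the arrays, 16 rose and 1 fell with miR2 (11.3% and 15.2% of all genes), and 3 rose and 1 fell with miR1 (1.49% and 2.98%). The largest rise with miR2 was that of IFI6, with a 3.40-fold higher signal, followed by IRF9 (2.14-fold) and OAS1 (2.12-fold). These 2 comparisons share the same control tumours. Compared directly, 13 genes were lower with miR1 than with miR2 and 2 were higher, against 8.22% and 14.3% of all genes, and the median of miR1 minus miR2 was -0.30.

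Of the 22 genes that rose with miR2, 13 were also higher with miR2 than with miR1: IFI6, OAS1, OAS2, IFIT1, MX1, IFI27, IFI44, IFI44L, RSAD2, IRF1, IRF7, IRF9 and CMPK2. The other 9 were not called between the hairpins. IFIH1 rose with both hairpins and HERC5 fell with both. In no gene of the list did all 10 knockdown tumours lie above or below all 6 controls (0.223% and 0.239% of all genes).

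The mean signal over the 41 genes was 4.86 to 5.02 in the control tumours, 4.97 to 5.07 with miR1 and 5.29, 5.48 and 5.15 with miR2. All 3 miR2 tumours lay above the 13 others, and miR2 tumour 2 was the highest of them. Single genes follow this order less evenly: miR2 tumour 2 held the highest signal of all 16 tumours in 16 of the 41 genes, and miR2 tumours 1 and 3 in 6 each. The share of all genes with their highest signal in each of these tumours was not counted, so these counts are not read as a trait of the list. Of the 41 genes, 14 were above every control in each miR2 tumour (6.55% of all genes) and 13 above every miR1 tumour (6.95%), while miR2 tumour 2 alone exceeded all 13 others in 23 (9.81%). In 10 genes each miR2 tumour lay above all 13 others (3.29% of all genes): IFI6, OAS1, OAS2, OAS3, IFIT2, IFI44, RSAD2, IRF1, IRF9 and CMPK2. In 0 genes did all miR2 tumours lie below the 13 others (8.1% of all genes).

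**Figure D2:**
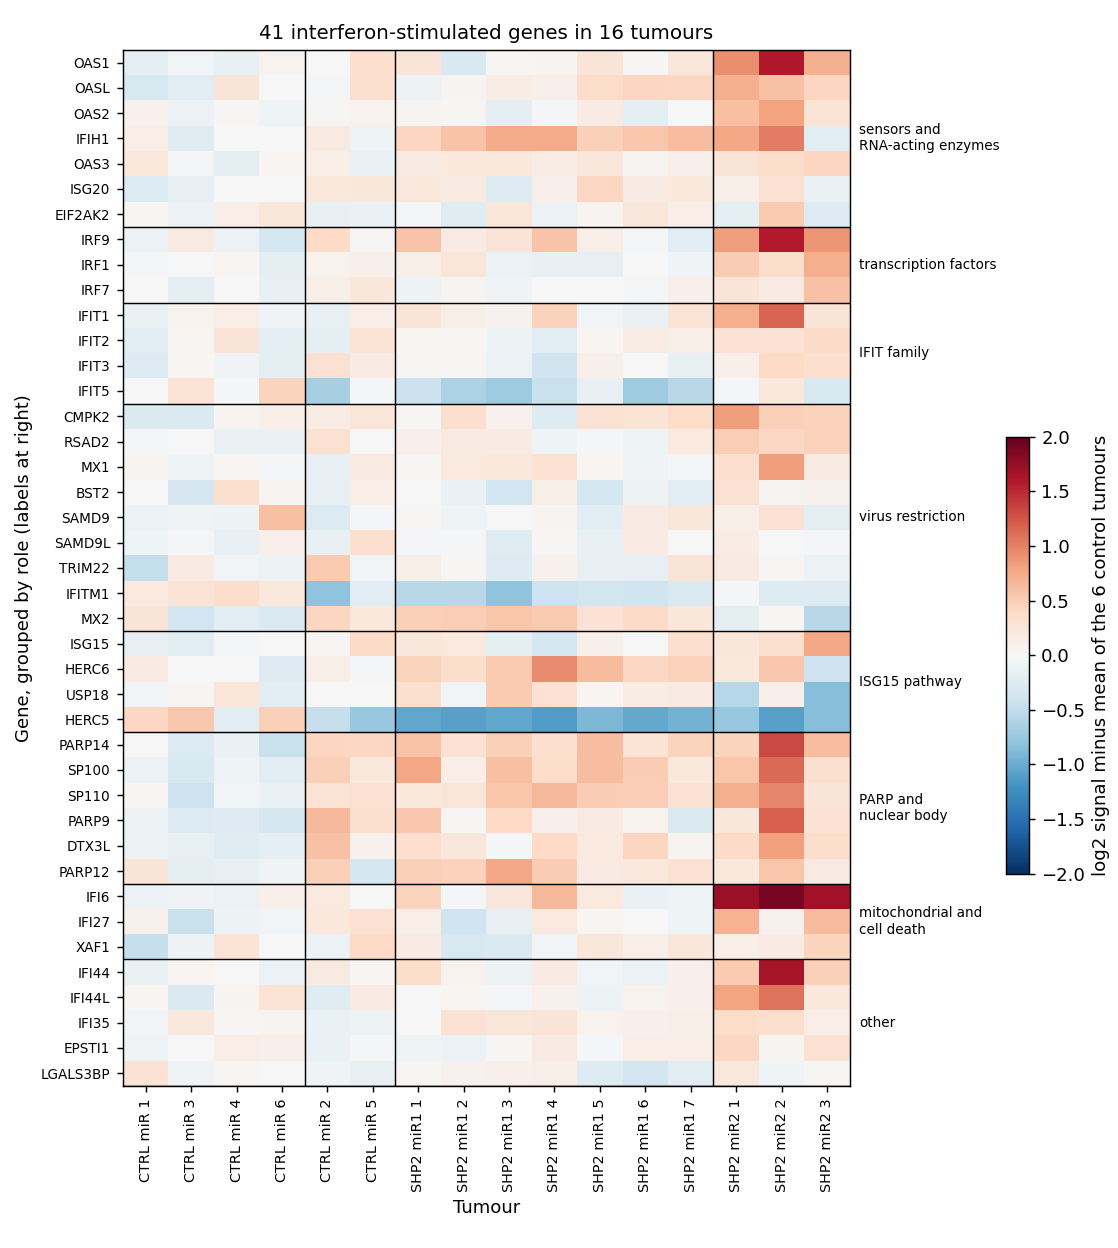
Log2 signal of 41 interferon-stimulated genes (rows, grouped by role) in 16 tumours (columns), each minus the mean of the 6 control tumours. Of the 41 genes, 35, 38 and 29 lie above the control mean (red) in miR2 tumours 1, 2 and 3. In the miR1 tumours 23 to 31 do, and the mean difference is 0.032 to 0.14 against 0.35, 0.54 and 0.21 with miR2. The row of HERC5 is blue in all knockdown tumours and in control tumours 2, 4 and 5.

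**Figure D3:**
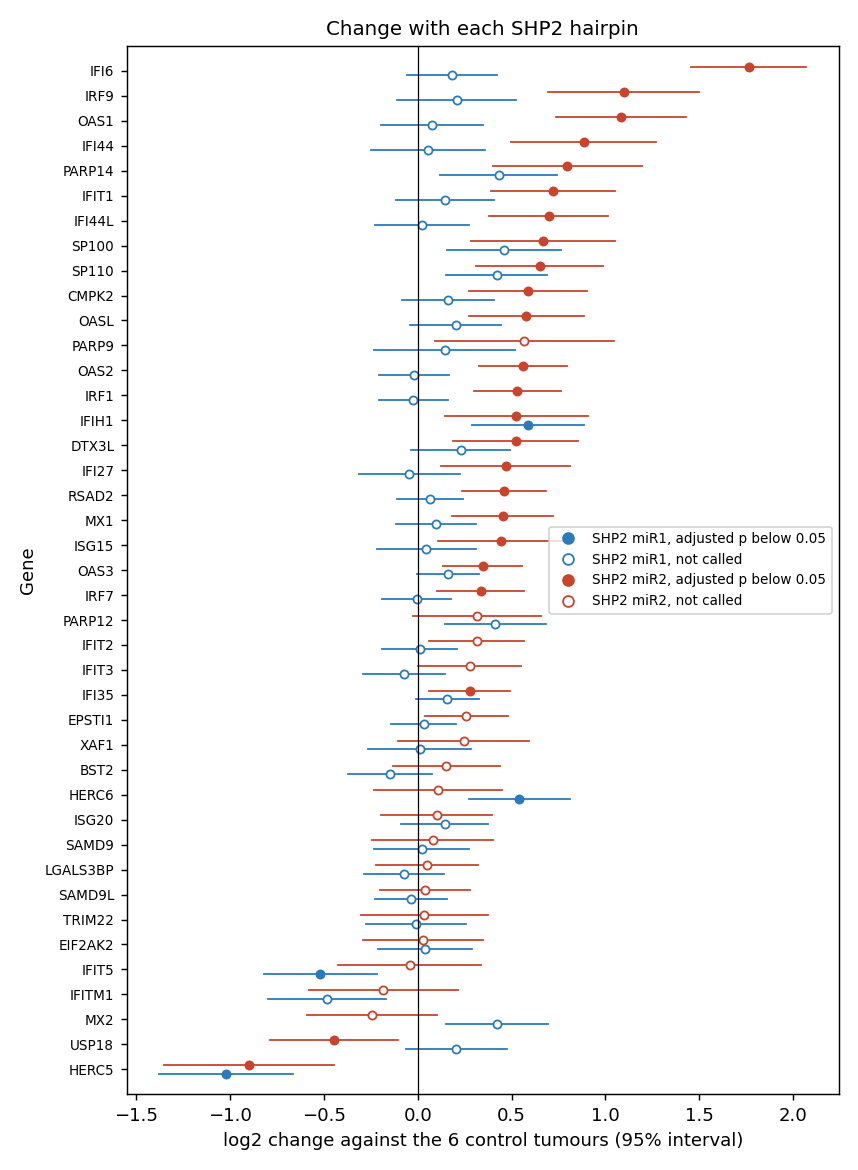
Log2 change against the 6 control tumours for each gene with miR1 (blue, n = 7) and miR2 (red, n = 3), with 95% intervals from limma and filled points where the adjusted p is below 0.05. Both changes use the same controls. IFI6, IRF9 and OAS1 stand at the top with miR2 and near 0 with miR1, and HERC5 lies at the bottom with both.

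Genes of the sensors and RNA-acting enzymes rose with miR2 in 5 of 7 cases (71.4%, beside 11.8% of all genes). OAS1, which makes the messenger that activates the RNA-cutting enzyme RNase L, had signals of 5.49, 6.16 and 5.28 with miR2, 4.38 to 4.89 in the controls (median 4.53) and 4.26 to 4.82 with miR1 (median 4.62). The miR2 tumours did not overlap with the others, and miR1 and control tumours overlapped. OAS1 rose by 1.08 ± 0.17 with miR2 (adjusted p = 0.000168), was at 0.077 ± 0.13 with miR1 (adjusted p = 0.8344) and differed between the hairpins (-1.0 ± 0.16, adjusted p = 0.0003331). Its paralogue OAS2 had 4.37, 4.58 and 4.05 with miR2 against 3.65 to 3.85 in the controls and rose by 0.56 ± 0.11 (adjusted p = 0.00157). OAS3, the largest enzyme of the family, rose by 0.35 ± 0.10 (adjusted p = 0.01577) from a control range of 4.78 to 5.19. OASL, which has lost the enzyme activity and acts with the RNA sensor RIG-I, had 5.36, 5.24 and 5.08 with miR2 and 4.33 to 4.96 in the controls and rose by 0.58 ± 0.15 (adjusted p = 0.007472).

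PTPN11 is a close neighbour of this cluster. In RefSeq gene order, PTPN11 is followed by RPH3A, OAS1, OAS3, OAS2 and DTX1, with 1 protein-coding gene between PTPN11 and OAS1. RPH3A (0.35 with miR2, adjusted p = 0.06904) and DTX1 (0.13, adjusted p = 0.3484), on either side of the OAS genes, were not called with miR2 or with miR1. The change of RPH3A was as large as that of OAS3, which was called (0.35, adjusted p = 0.01577). Whether the place near PTPN11 bears on the OAS changes was not tested.

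IFIH1, which encodes MDA5, a sensor of long double-stranded RNA, was the only gene of the list that rose with both hairpins. Its signals were 5.02 to 5.45 in the controls (median 5.26), 5.69 to 6.0 with miR1 (median 5.83) and 6.03, 6.28 and 5.04 with miR2. All miR1 tumours lay above all controls, and miR2 tumour 3 lay within the control range. It rose by 0.59 ± 0.14 with miR1 (adjusted p = 0.02319) and by 0.53 ± 0.18 with miR2 (adjusted p = 0.03572). Without control tumour 3, 4 or 6 or miR1 tumour 4 the miR1 call was lost, with adjusted p = 0.07384, 0.06007, 0.06342 and 0.05052. The change with miR1 was 0.54 against control tumours 2 and 5 and 0.58 within set B, neither of them called. The nuclease gene ISG20 (0.10 with miR2) and the kinase gene EIF2AK2, which encodes PKR and stops translation on sensing double-stranded RNA (0.029), were not called in any comparison.

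All 3 measured transcription factors rose with miR2 (beside 11.8% of all genes). With miR1 limma called 0 of them (0 at an unadjusted p below 0.05). IRF9, the DNA-binding part of ISGF3, had signals of 7.16, 7.92 and 7.21 with miR2, 5.99 to 6.72 in the controls (median 6.28) and 6.11 to 6.91 with miR1 (median 6.49). The miR2 tumours lay above all others. IRF9 rose by 1.10 ± 0.19 with miR2 (adjusted p = 0.000554), was at 0.21 ± 0.15 with miR1 (adjusted p = 0.5326) and differed between the hairpins (-0.89 ± 0.19, adjusted p = 0.003075). IRF1, an activator induced by interferon gamma, had 5.38, 5.23 and 5.60 with miR2, against 4.70 to 4.98 in the controls and 4.71 to 5.11 with miR1, and rose by 0.53 ± 0.11 with miR2 (adjusted p = 0.002132). IRF7, which drives interferon alpha genes, rose by 0.34 ± 0.11 with miR2 (adjusted p = 0.02927), with miR2 tumour 2 (5.92) inside the control range of 5.54 to 5.97.

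**Figure D4:**
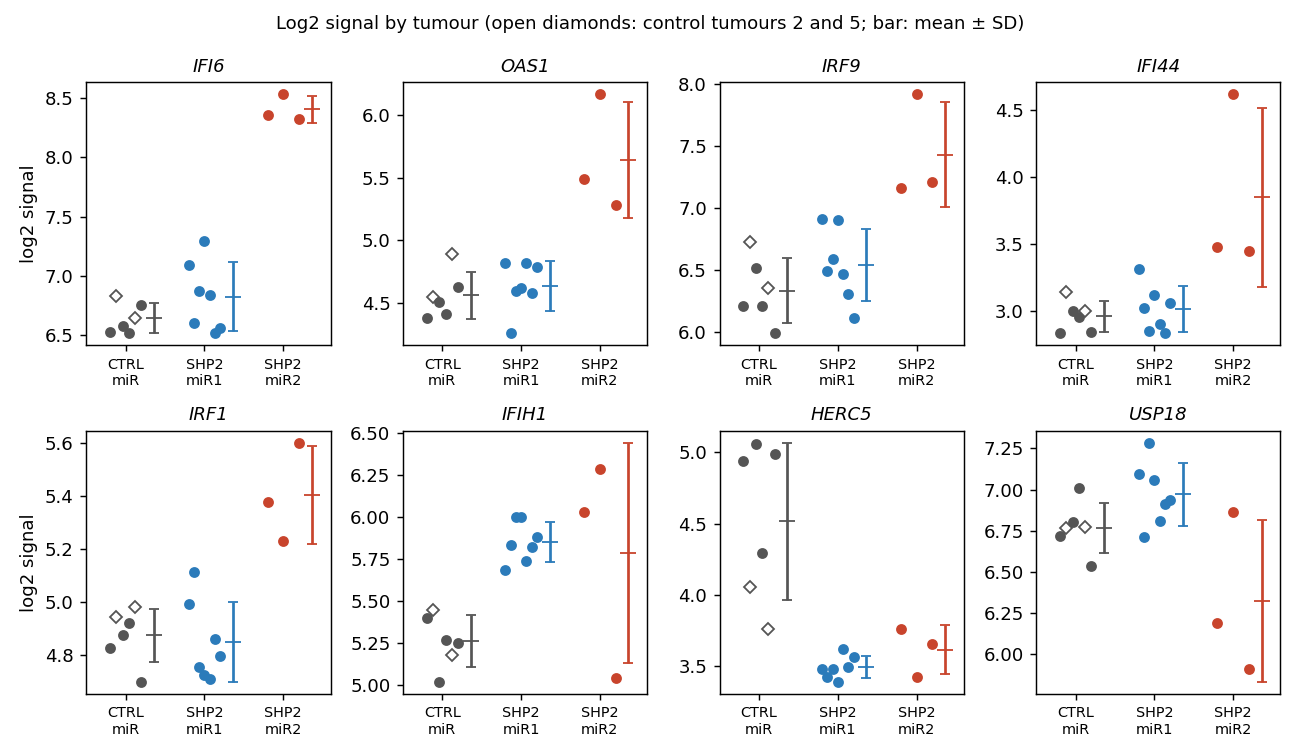
Log2 signal of 8 interferon-stimulated genes in every tumour (points), with mean ± SD of each group at its right; open diamonds are control tumours 2 and 5. IFI6, OAS1, IRF9, IFI44 and IRF1 are higher in all 3 miR2 tumours than elsewhere, IFIH1 is higher with miR1, and HERC5 is lower with both hairpins. For HERC5, control tumours 2 and 5 are the lowest controls, and tumour 5 (3.761) lies just below miR2 tumour 1 (3.765).

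Of the 4 IFIT genes, whose proteins bind viral RNA and block its translation, IFIT1 alone rose with miR2 (25%, beside 11.8% of all genes). Its signals of 3.71, 4.15 and 3.24 lay above the control range of 2.84 to 3.12, and it rose by 0.72 ± 0.16 (adjusted p = 0.002969). IFIT2 had 4.01, 4.01 and 4.10 with miR2 against 3.52 to 4.01 in the controls and was not called (0.31 ± 0.12, adjusted p = 0.05712), nor was IFIT3 (0.28, adjusted p = 0.1134). IFIT5 differed from these. It was at 4.07 to 5.18 in the controls and 4.02 to 4.58 with miR1, fell with miR1 (-0.52 ± 0.14, adjusted p = 0.04316) and was at 4.70, 4.94 and 4.42 with miR2 (-0.044, adjusted p = 0.8649). The miR1 and control tumours overlapped, control tumour 2 was the lowest control, and against control tumours 2 and 5 the change with miR1 was -0.17 (adjusted p = 0.9113). The call for IFIT5 was lost on leaving out any one of 11 tumours: control tumours 1, 3, 4 and 6, each miR1 tumour but tumour 5, and miR2 tumour 1.

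Among 9 genes of direct virus restriction, 3 rose with miR2 (33.3%, beside 11.8% of all genes). With miR1 limma called 0 of the 9 against the controls (2 at an unadjusted p below 0.05). RSAD2, which encodes viperin, a maker of a chain-ending nucleotide, had 3.65, 3.58 and 3.62 with miR2 against 3.02 to 3.46 in the controls and rose by 0.46 ± 0.11 (adjusted p = 0.004511). Its neighbour and functional partner CMPK2, a mitochondrial nucleotide kinase, rose by 0.59 ± 0.15 (adjusted p = 0.007651), from 4.26 to 4.80 in the controls to 5.39, 5.02 and 5.02. MX1, a GTPase that traps viral ribonucleoproteins, had 4.90, 5.39 and 4.75 with miR2 against 4.40 to 4.74 and rose by 0.45 ± 0.13 (adjusted p = 0.01373). Its paralogue MX2 went with the other hairpin: it had 6.64 to 6.97 with miR1, 6.03 to 6.84 in the controls and 6.21, 6.44 and 5.85 with miR2. MX2 exceeded its miR2 level in miR1 tumours (0.67 ± 0.16, adjusted p = 0.007735), and neither hairpin was called against the controls (0.42 and -0.25).

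The other 5 restriction genes were not called in any comparison. They were BST2, which tethers budding virions (0.15 with miR2), TRIM22 (0.034), the paralogues SAMD9 (0.078) and SAMD9L (0.038), and the entry inhibitor gene IFITM1. IFITM1 had 5.05 to 5.21 in controls 1, 3, 4 and 6, only 4.06 and 4.66 in controls 2 and 5, 4.06 to 4.57 with miR1 and 4.83, 4.61 and 4.60 with miR2. Against all controls its change with miR1 was -0.48 (adjusted p = 0.06925), against the former 4 it was -0.74 (adjusted p = 1.124e-05), and against tumours 2 and 5 it was 0.025 (adjusted p = 0.9869).

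The ISG15 pathway moved in both directions. ISG15, the ubiquitin-like protein itself, had 5.01, 5.11 and 5.57 with miR2 and 4.55 to 5.17 in the controls, so the groups overlapped, and rose by 0.44 ± 0.16 (adjusted p = 0.04266). HERC5, the main ligase that attaches ISG15 in human cells, had the largest fall of the list. Its signals were 4.94, 4.06, 5.06, 4.30, 3.76 and 4.99 in control tumours 1 to 6, 3.39 to 3.62 with miR1 (median 3.48) and 3.76, 3.43 and 3.66 with miR2. All miR1 tumours lay below all controls, and of the miR2 tumours only tumour 1 (3.765) reached the lowest control, tumour 5 (3.761). HERC5 fell by 1.02 ± 0.17 with miR1 (adjusted p = 0.003975) and by 0.90 ± 0.22 with miR2 (adjusted p = 0.005407). Control tumours 2 and 5 were also the lowest controls, and set against only these, miR1 gave -0.41 (adjusted p = 0.434) and miR2 -0.29 (adjusted p = 0.2649).

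USP18, the protease that removes ISG15 and also shuts off the type I interferon receptor, fell with miR2 by 0.45 ± 0.16 (adjusted p = 0.04588). Its signals were 6.19, 6.86 and 5.91 with miR2, 6.53 to 7.01 in the controls and 6.71 to 7.29 with miR1. Only miR2 tumours 1 and 3 lay below the controls, and with tumour 2 as the sole miR2 tumour the change was 0.097. The call was lost on leaving out any one of 11 tumours: control tumours 1 to 4, miR1 tumours 1 and 4 to 7, and miR2 tumours 1 and 3. USP18 exceeded its miR2 level in miR1 tumours (0.65 ± 0.16, adjusted p = 0.008315). HERC6, a relative of HERC5, had 5.71 to 6.29 with miR1, all above the control range of 5.08 to 5.52, and rose by 0.54 ± 0.13 (adjusted p = 0.02106). With miR2 it had 5.55, 5.88 and 4.93 (0.11, adjusted p = 0.6238). The HERC6 call with miR1 was lost without control tumour 3, 4 or 6 (adjusted p = 0.05624, 0.05561 and 0.07176), and against control tumours 2 and 5 the change was 0.49.

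In the group of PARP enzymes and nuclear body proteins, 4 of 6 genes rose with miR2 (66.7%, beside 11.8% of all genes). With miR1 limma called 0 of the 6 (4 at an unadjusted p below 0.05). PARP14, a mono-ADP-ribosyltransferase, had 6.97, 7.85 and 7.14 with miR2 and 6.08 to 6.96 in the controls and rose by 0.80 ± 0.19 (adjusted p = 0.005015). The nuclear body genes SP100 and SP110 rose by 0.67 ± 0.18 (adjusted p = 0.01172) and 0.65 ± 0.16 (adjusted p = 0.006763), and DTX3L, a ubiquitin ligase that pairs with PARP9, by 0.52 ± 0.16 (adjusted p = 0.02116). PARP9 (0.57 ± 0.23, adjusted p = 0.06452) and PARP12 (0.31, adjusted p = 0.1431) were not called.

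These genes also differ between the controls. PARP14 was at 6.96 and 6.93 in controls 2 and 5, above the 6.08 to 6.53 of the other 4, and SP100 was at 5.83 and 5.56 against 5.05 to 5.27. In all, 12 of the 41 genes were higher in both control tumours 2 and 5 than in the other 4 controls (16.6% of all genes), among them PARP9, PARP14, DTX3L, SP100 and SP110, and 6 were lower in both (19.0% of all genes), among them HERC5, IFIT5 and IFITM1. With control tumours 1, 3, 4 and 6 alone, PARP12, PARP14, DTX3L, SP100 and SP110 rose with miR1, PARP14 by 0.64 (adjusted p = 0.00166). With control tumours 2 and 5 alone, the change of PARP14 was 0.0073 with miR1 (adjusted p = 0.9983) and 0.37 with miR2 (adjusted p = 0.3077).

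IFI6, a small mitochondrial and endoplasmic reticulum protein that protects from cell death, stood apart. Its signals were 8.36, 8.53 and 8.32 with miR2, 6.52 to 6.83 in the controls (median 6.61) and 6.51 to 7.29 with miR1 (median 6.84). The gap between the lowest miR2 tumour and the highest other tumour exceeded the range within any group. IFI6 rose by 1.76 ± 0.15 with miR2 (adjusted p = 1.385e-07), was at 0.18 ± 0.12 with miR1 (adjusted p = 0.4438) and differed between the hairpins (-1.58 ± 0.14, adjusted p = 4.477e-07). IFI27, a related mitochondrial protein, had 4.99, 4.38 and 4.93 with miR2 and 3.86 to 4.61 in the controls, and rose by 0.47 ± 0.16 (adjusted p = 0.03779). The cell death gene XAF1 was not called (0.24, adjusted p = 0.2576).

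Of the remaining 5 genes, 3 rose with miR2 (60%, beside 11.8% of all genes). IFI44 had 3.48, 4.61 and 3.45 with miR2 against 2.84 to 3.14 in the controls and 2.84 to 3.31 with miR1, and rose by 0.88 ± 0.19 (adjusted p = 0.002109). Its paralogue IFI44L had 4.06, 4.34 and 3.47 against 2.97 to 3.52 and rose by 0.70 ± 0.15 (adjusted p = 0.002755). IFI35 rose by 0.28 ± 0.10 (adjusted p = 0.04782). EPSTI1 (0.26, adjusted p = 0.06712) and LGALS3BP, which encodes a secreted glycoprotein (0.049, adjusted p = 0.7828), were not called.

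Of the 22 rises with miR2, 11 were called whichever single tumour was left out: IFI6, OAS1, OAS2, IFIT1, IFI44, IFI44L, RSAD2, IRF1, IRF9, SP110 and PARP14. OASL and CMPK2 were lost without miR2 tumour 1, MX1, SP100 and DTX3L without miR2 tumour 2 and OAS3 without miR2 tumour 3. IRF7 was lost without any one of 4 tumours (control tumours 3 and 6, miR2 tumours 1 and 3), IFIH1 without any one of 5 (control tumours 3, 4 and 6, miR2 tumours 1 and 2), IFI27 without any one of 6 (control tumours 1, 3, 4 and 6, miR2 tumours 1 and 3) and ISG15 without any one of 6 (the same 4 controls, miR1 tumour 6, miR2 tumour 3). IFI35 was lost without any one of 13, all but control tumour 3 and miR1 tumours 1 and 2. In the direct comparison of the hairpins, the call for MX1 was lost on leaving out any one of 12 tumours, and calls for CMPK2, IFI27, IRF7, IFIT1, RSAD2, USP18 and MX2 were lost without at least 1 miR2 tumour.

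Against control tumours 2 and 5 alone, 4 genes were called higher with miR2 (1.39% of all genes): IFI6 (1.67, adjusted p = 3.861e-05), OAS1 (0.92, adjusted p = 0.01954), IRF9 (0.89, adjusted p = 0.04146) and IFI44L (0.74, adjusted p = 0.03576). This fit has only 2 controls, and the median change of the 41 genes in it was 0.305, beside 0.345 against all controls. In 17 of the 41 genes each miR2 tumour lay above both of these controls (10.7% of all genes). Against control tumours 1, 3, 4 and 6 alone, 24 were called higher (22.0% of all genes). With miR1, limma called 0 genes of the list higher against tumours 2 and 5 (3 at an unadjusted p below 0.05; 0.0326% of all genes called), and 8 against the other 4 controls (6.88% of all genes). Within array set B, 15 genes were called higher with miR2 (3.90% of all genes), with IFI6 at 1.77 and IRF9 at 1.25, and with miR1 limma called 0 in set A and 0 in set B (10 and 6 at an unadjusted p below 0.05; 0.0163% and 0% of all genes called).

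Over all genes the median change with miR2 was 0.16 for genes with a mean signal below 4, 0.24 at 4 to 5, 0.12 at 5 to 6, -0.15 at 6 to 7 and -0.19 at 7 and above. In the same bands the medians of the interferon-stimulated genes were 0.28, 0.46, 0.34, 0.52 and 0.049. The members lay above the other genes of their band by the widest margin at 6 to 7. There 4 of 7 rose (IRF9, PARP14, DTX3L and SP110), beside 7.18% of all genes of the band, and USP18 fell. In the other bands 5 of 13 rose below 4 (11.9% of all genes of the band), 7 of 10 at 4 to 5 (20.4%), 5 of 8 at 5 to 6 (19.1%) and 1 of 3 at 7 and above (4.17%). On all 6 control arrays, IFIT1, IFIT3, IFI44, IFI44L, RSAD2, SAMD9L and EPSTI1 lay below the lower quartile of the array (3.72 to 4.04).

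**Figure D5:**
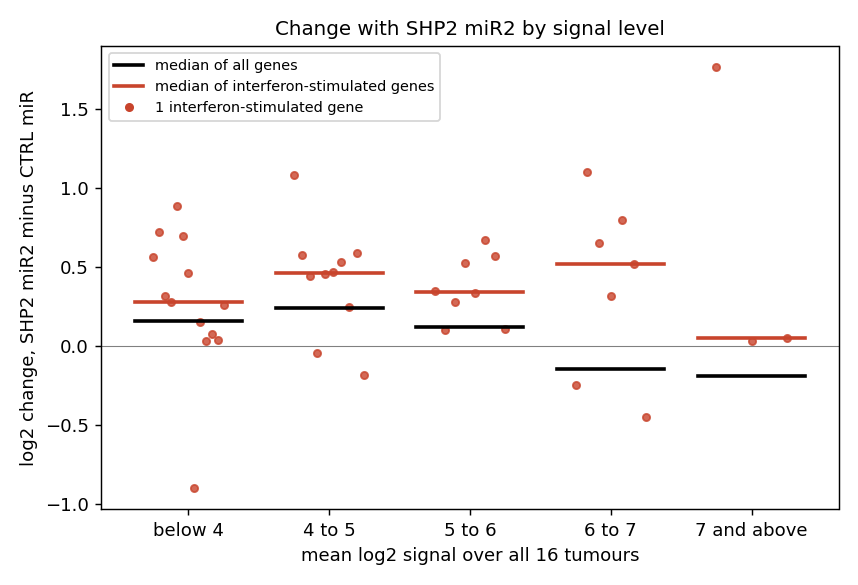
Log2 change with miR2 against the controls (y axis) by mean log2 signal over all 16 tumours (x axis, 5 bands), with 1 point for each interferon-stimulated gene, the median of these genes (red line) and the median of all genes in the band (black line). The red line lies above the black line in each band, from 0.28 against 0.16 below 4 to 0.52 against -0.15 at 6 to 7.

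The genes upstream of the response were mostly not called. Of 16 interferon genes, limma called 0 with miR2 (1 at an unadjusted p below 0.05), 0 with miR1 (0 unadjusted) and 0 between the hairpins (2 unadjusted), and the smallest p was that of IFNA13 (0.34 with miR2, adjusted p = 0.1696). Of 10 receptor and JAK-STAT genes, limma called 0 higher with either hairpin, and IFNGR1, a chain of the interferon gamma receptor, fell with both (-0.38 with miR1, adjusted p = 0.02031; -0.45 with miR2, adjusted p = 0.007998). IFNGR1 was the sole gene of these 10 with an unadjusted p below 0.05 with miR2. Control tumours 2 and 5 were its lowest controls (7.512 and 7.576), below the 7.856 to 8.046 of control tumours 1, 3, 4 and 6. The miR1 tumours, at 7.298 to 7.514, reached control tumour 2. The miR2 tumours, at 7.328 to 7.399, lay below all controls. The change of IFNGR1 against control tumours 2 and 5 alone is not given here. The lambda receptor chain gene IFNLR1 (-0.34, adjusted p = 0.02993) and the kinase gene JAK2 (-0.46, adjusted p = 0.0345) were lower with miR1 than with miR2. Of 18 other sensors and adaptors, 2 rose with miR2 (11.1%, beside 11.8% of all genes), DHX58, which encodes the RNA helicase LGP2 (0.48, adjusted p = 0.003346), and IRF5 (0.36, adjusted p = 0.02148).

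Of 9 genes that restrain the response, 2 rose with miR2 (22.2%, beside 11.8% of all genes), and the median change of the 9 was -0.0066, with 4 above 0. SOCS3, an inhibitor of JAK kinases, had 7.12, 6.59 and 6.89 with miR2 against 5.66 to 6.25 in the controls and rose by 0.89 ± 0.16 (adjusted p = 0.0006029), and IRF2, which competes with IRF1, rose by 0.41 (adjusted p = 0.04594). Of 15 targets typical of interferon gamma, 4 rose with miR2 (26.7%) and 1 fell (6.67%, beside 18.2% of all genes). The GTPase gene GBP2 rose by 0.91 ± 0.20 (adjusted p = 0.002905). GBP2 also differed between the controls, with tumours 2 and 5 (6.719 and 6.453) above the others (5.617 to 6.112). In miR2 tumour 1 it was at 6.596, below control tumour 2. Against control tumours 2 and 5 alone its change with miR2 was 0.44 (adjusted p = 0.2032). Against the other controls it was 1.15 (adjusted p = 1.42e-05). With the mean of macrophage, fibroblast and endothelial markers as a covariate it was 0.76 (adjusted p = 0.3651). The immunoproteasome genes PSMB9 and PSMB8 rose by 0.67 and 0.42 (adjusted p = 0.0002257 and 0.008011). The tryptophan transfer RNA synthetase gene WARS1 fell by 0.95 ± 0.13 (adjusted p = 4.401e-05).

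Of 31 further interferon-stimulated genes outside the list, 7 rose with miR2 and 3 fell, shares of 22.6% and 9.68% beside 11.8% and 18.2% of all genes. DDX60, a helicase relative that promotes RNA sensing, had 5.98, 6.81 and 5.69 with miR2, 4.57 to 5.28 in the controls and 5.14 to 5.47 with miR1, and rose by 1.35 ± 0.19 with miR2 (adjusted p = 6.878e-05). TNFSF10, which encodes the death ligand TRAIL, had 7.15, 7.62 and 7.24 against 5.70 to 6.44 and rose by 1.20 ± 0.14 (adjusted p = 1.149e-05). HELZ2 rose by 0.59 (adjusted p = 0.001465), and the membrane protein gene LY6E fell by 0.59 (adjusted p = 0.001633).

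Macrophage, myeloid and fibroblast markers moved with miR2 too. Of 11 macrophage and myeloid markers, 7 rose with miR2 (63.6%, beside 11.8% of all genes) and 1 with miR1 (9.09%, beside 1.38%), and their mean signal was 4.14 to 4.53 in the controls, 4.30 to 4.55 with miR1 and 4.49 to 4.87 with miR2. LYZ, the lysozyme gene, rose by 0.89 (adjusted p = 0.000134) and PTPRC, the gene of the leukocyte antigen CD45, by 0.66 (adjusted p = 0.0003839), the latter from signals of 3.11 to 3.38 that lay below the lower quartile. Of 8 fibroblast markers, 5 rose with miR2 (62.5%) and 2 with miR1 (25%), with mean signals of 4.88 to 5.24, 5.14 to 5.41 and 5.44 to 5.60 in the 3 groups. Of 7 lymphocyte markers CD3E alone rose with miR2 (14.3%), of 6 endothelial markers VWF (16.7%) and of 4 adipocyte markers PLIN1 (25%). Over all genes 11.8% rose, with 11.9% at a mean signal below 4, 20.4% at 4 to 5 and 19.1% at 5 to 6. Of 4 markers of plasmacytoid dendritic cells, a main source of interferon alpha, limma called 0 (0 at an unadjusted p below 0.05). Of 4 skeletal muscle markers limma called 0 (1 unadjusted). Array signals have no true zero, so no marker can be called absent.

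The mean of the macrophage, fibroblast and endothelial markers was 4.31 to 4.66 in the controls, 4.49 to 4.69 with miR1 and 4.95, 4.70 and 4.88 in miR2 tumours 1, 2 and 3. All 3 miR2 tumours lay above the 13 others in it, so the covariate separates the same tumours as the group. With that mean as a covariate, 3 genes of the list were called higher with miR2 (0.887% of all genes): IFI6 (1.97, adjusted p = 0.0001682), IRF9 (1.62, adjusted p = 0.007372) and IFI44 (1.30, adjusted p = 0.03695). OAS1 then had a change of 1.03 (adjusted p = 0.09199), and the median change of the 41 genes was 0.32, beside 0.35 without the covariate. Beyond this fit, the part of host cells in the rises was not tested. In whole tumours, fewer cells of a type and less RNA per cell cannot be told apart.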

How the data were processed

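Per the labels, 16 BT474 tumours were hybridised as total RNA to HuGene-1_0-st-v1 arrays. Values deposited by the authors are taken as log2 signals of transcript clusters, a scale inferred from their range (1.54 to 13.63; medians of arrays 5.21 to 5.41). R 2.10 and oligo 1.8 are named in the submitters' processing notes, and for background correction and normalization the method is not given in the sources used here. The table has 28869 clusters, 19310 listed under 1 symbol, 1752 under several and 7807 under none. Only single-symbol clusters entered, with the highest-mean cluster for each of 685 genes with more than 1, and no filter on low values. A model with the 3 group means (13 residual degrees of freedom) was fitted in R 4.3.3 by lmFit and eBayes of limma 3.58.1, with Benjamini-Hochberg adjustment of each contrast's p-values. The fit was tested on simulated data. Array precision is limited by the number of arrays. Intervals are at the 95% level, and plots were drawn with matplotlib 3.10.9.

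The genes and the lists were chosen with earlier results of these data known. Named are all listed genes, PTPN11, IRS4, HOXD10 and, of each other list, at most 4 genes with the smallest p among those called in any contrast, or the 1 with the smallest p. RPH3A and DTX1 were named, after values were seen, for their place in the genome. Promoter letters are RefSeq's. Alternatives were quantile normalization, centring on array medians, leaving out the genes of lowest mean signal (1 in 3), another cluster per gene, an intensity trend, a block for the replicate number, array weights, only the groups compared, host cell markers as a covariate, each set of controls, each array set and its block, and leaving out each tumour. Using miR2 tumour 2 alone was added after seeing that tumours 1 and 3 have the smallest array SD (1.89). Replicate numbers are not stated to pair tumours. Of 12 pairs with the same number in different groups, 5 had correlated deviations above 0.1, with r from -0.42 to 0.369 over the 12. In each of these 5 both tumours were of the same array set, and in the others they were not. Pairs of 1 array set with unlike numbers had r from -0.462 to 0.484, so number and array set cannot be told apart here.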

Additional observations from a re-analysis of the deposited data

Results flagged for a closer look

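Of 82 sets of values (41 genes in the 6 control and in the 7 miR1 tumours), 3 held 1 tumour far from the others by Dixon's test, where chance gives about 1 in 20. OAS1 in miR1 tumour 2 was the lowest of its group at 4.258, with the others at 4.583 to 4.822. RSAD2 in control tumour 2 was the highest control at 3.465, with the others at 3.025 to 3.165, all below the lower quartile of the arrays. SAMD9 in control tumour 6 was the highest control at 4.144, with the others at 3.276 to 3.514. The effect of miR1 was compared between array sets A and B by an interaction term, and limma called 0 of the 41 genes (3 at an unadjusted p below 0.05) and 0 of all genes.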

How the results depend on the processing

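With miR1, the 2 rises became 8 with array weights, 4 with a replicate block, 0 with control tumours 2 and 5 only, 8 with control tumours 1, 3, 4 and 6 only, and 0 in array set A alone and 0 in set B alone. The 2 falls became 1 after quantile normalization, centring, a replicate block, only the groups compared, the host covariate or miR2 tumour 2 only, and 0 without the lowest-signal genes, with control tumours 2 and 5 only and in either set. With miR2, the 22 rises became 14 after centring, 11 without the lowest-signal genes (which removes low members), 3 with the host covariate, 4 with control tumours 2 and 5 only and 12 with miR2 tumour 2 only, a lone tumour assumed to vary like the other groups and the one with the highest mean of these genes; after quantile normalization they were 16. The 2 falls became 1 after quantile normalization, without the lowest-signal genes, with a replicate block, with only the groups compared or with the set as a block, and 0 with the host covariate, control tumours 2 and 5 only, set B alone or miR2 tumour 2 only. Between the hairpins, the 2 genes higher with miR1 became 0 with the host covariate, in set B alone and with miR2 tumour 2 only, and the 13 lower became 8 after quantile normalization, 8 after centring, 4 without the lowest-signal genes, 5 with the host covariate, 5 in set B alone and 8 with miR2 tumour 2 only. Leaving out 1 tumour gave 0 to 8 rises and 1 to 3 falls with miR1, 16 to 23 rises and 1 to 2 falls with miR2, and 0 to 3 higher and 7 to 17 lower between the hairpins. The miR1 rises numbered 0 without control tumour 3, 4 or 6, 8 without control tumour 2, 6 without control tumour 5 and 1 without miR1 tumour 4. Between the hairpins, 7 genes were lower without miR2 tumour 1, and 0 and 1 were higher without miR2 tumours 3 and 1.

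Among genes called in the main setting or under the alternative, signs turned with the host covariate for miR2 against the controls in ISG15 (-0.106), IFI27 (-0.011), CMPK2 (-0.088), CD68 (-0.011), CD3E (-0.026) and VWF (-0.070), and between the hairpins in CMPK2 (0.047) and TLR9 (0.066). They turned for USP18 with miR2 tumour 2 only (0.097) and for IRS4 with miR1 against control tumours 2 and 5 only (0.028). The cause was not tested. Of 43 member calls, 6 held under every alternative that gave a value: IFI6 and IRF9 with miR2 and between the hairpins, and OAS1 and OAS2 between the hairpins. Of 3665 member values under alternatives, 3314 kept their side of the threshold without a called value changing sign; among these, 178 that were called in neither setting changed sign. Low signal over background limits the reading of the weakest genes.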
